A study of Homo sapiens with 120 samples.

Results

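The 9 genes described here are 4 widely used target genes of the transcriptional coactivators YAP and TAZ (CCN1, CCN2, ANKRD1 and AMOTL2) and 5 genes of the actin-based contractile apparatus (ACTA2, TAGLN, MYL9, CNN1 and TPM1). They were taken by gene name, 9 of the 62703 genes of the deposited table, and followed over all 120 libraries. The libraries hold bulk, polyadenylated RNA from the established embryonic stem cell line H1 (human) and fall into 60 groups of 2. In 96 libraries, unedited cells (WT) and 2 edited lines, KO and ΔATG, were sampled at day 0 and on days 1, 2, 3, 4 and 5 of treatment with BMP4 (aimed at mesoderm), of a neural induction kit with SMAD inhibitors (SMADi) and of a definitive endoderm kit (Endo). The other 24 libraries are H1 cells carrying a vector, lncPRESS1, lncPRESS1ΔATG or lncSIRP, collected at 3 stages named early, middle and late. lncPRESS1 is a long non-coding RNA of pluripotent cells. From its name ΔATG lacks a start codon; the labels do not give the edit behind KO or ΔATG, the number of clones, what lncSIRP is, or the days of the stages. They also do not state that the 2 libraries of a group came from separate cultures. The p-values therefore measure only the spread between libraries of a group, which may be technical. That spread is pooled for each gene over all 96 or all 24 libraries.

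When the Hippo kinases are inactive, YAP and TAZ enter the nucleus and bind DNA through TEAD factors. Tension in the actin cytoskeleton, generated by myosin, is a known input to YAP and TAZ. The same tension frees MRTF cofactors to act with SRF, which binds CArG boxes near many contractile genes. CCN1 and CCN2 encode secreted matricellular proteins. ANKRD1 encodes an ankyrin repeat protein of the nucleus and the sarcomere, and AMOTL2 an angiomotin that binds YAP and restrains it. ACTA2 is smooth muscle α-actin, TAGLN and CNN1 bind actin filaments, MYL9 is a regulatory light chain of myosin, and TPM1 is a tropomyosin that lies along the filament. In stem cell cultures these genes respond to shape, density and lineage, and TAGLN, MYL9 and TPM1 are not limited to muscle.

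The motif GGAATG, a core sequence bound by TEAD factors, was searched on both strands in promoters from RefSeq (GRCh38.p14, 250 bases before to 50 after the start), where 6 of the 9 genes were matched. It is shown because its copies differ between the members in that table. CCN2 held 3 copies, 169, 104 and 95 bases before its start, and ANKRD1 held 2 (220 and 128 bases before). Of the 2 AMOTL2 starts 1 held 1 copy (69 bases before), and of the 2 ACTA2 starts 1 held 1 (183 bases before). CCN1, TAGLN and MYL9 had no promoter in the table and were not searched. The YAP targets and the contractile genes therefore cannot be compared as sets. CNN1 and TPM1 held none in this window. Of all 35116 promoters in the table, 14% held the motif. The CArG box (CC, 6 bases of A or T, then GG) was in 1.29% of all promoters and in none of those matched here. The motif or its reverse complement is in capitals below, read 5′ to 3′ on the gene's strand, which is the minus strand for all 4 genes. The ANKRD1 stretch at chr10:90921198-90921227 and the AMOTL2 and ACTA2 stretches lie inside the GENCODE 29 gene spans given below. Their RefSeq starts lie further inside those spans, so "before" refers to the RefSeq start only. A match is a description of the letters only.
CCN2, chr6:131951442-131951561: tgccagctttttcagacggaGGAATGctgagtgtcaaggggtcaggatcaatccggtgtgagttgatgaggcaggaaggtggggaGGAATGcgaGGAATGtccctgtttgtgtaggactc
ANKRD1, chr10:90921290-90921319: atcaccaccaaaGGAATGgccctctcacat
ANKRD1, chr10:90921198-90921227: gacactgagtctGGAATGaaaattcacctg
AMOTL2, chr3:134374499-134374528: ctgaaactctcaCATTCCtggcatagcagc
ACTA2, chr10:88952931-88952976: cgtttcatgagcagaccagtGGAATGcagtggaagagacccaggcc

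In the GENCODE 29 annotation of GRCh38, all 9 are protein-coding: CCN1 (ENSG00000142871) lies at chr1:85580761-85583962, CCN2 (ENSG00000118523) at chr6:131948176-131951373 and ANKRD1 (ENSG00000148677) at chr10:90912096-90921276. AMOTL2 (ENSG00000114019) lies at chr3:134355874-134375479 and ACTA2 (ENSG00000107796) at chr10:88935074-88991339. TAGLN (ENSG00000149591) lies at chr11:117199321-117204782, MYL9 (ENSG00000101335) at chr20:36541484-36551447, CNN1 (ENSG00000130176) at chr19:11538717-11550323 and TPM1 (ENSG00000140416) at chr15:63042632-63071915. CCN2, ACTA2, TAGLN, MYL9 and TPM1 overlap a gene on the other strand, and AMOTL2 overlaps a pseudogene and a miRNA gene on its own strand. The strand setting of the counting is not given in the sources used here. Reads in those overlaps are therefore uncertain.

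Library totals ran from 38298440 to 71220396 counts in the differentiation libraries and from 40113672 to 65466258 in the overexpression libraries. Levels are CPM, counts scaled to a common library total, differences are log2 fold changes with their standard error (SE), and a gene is called changed at a Benjamini-Hochberg adjusted p under 0.05 in edgeR's quasi-likelihood test over all tested genes. All 9 members passed the filter on low counts, ANKRD1 only through the groups where it is high. Its calls are included in the counts of members below and support nothing by themselves. At day 5 the lineage genes followed the protocol labels in WT: HAND1 was at 208 to 240 CPM in BMP4, PAX6 at 139 to 161 in SMADi and SOX17 at 422 to 423 in Endo. LNCPRESS1 at day 0 was at 21.4 to 40.6 CPM in WT, 5.60 to 13.2 in KO and 35.2 to 53.1 in ΔATG, and was lower in KO than WT by -1.70 ± 0.22 (log2, adjusted p = 2.2e-07). In bulk RNA, fewer cells expressing a gene and less RNA per cell cannot be told apart.

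The first question is how the genes run in unedited cells. In WT cells under BMP4, 8 of 9 members had risen by day 5, where 22.9% of all tested genes had, and CNN1 was not called. ANKRD1 had 0 counts in both WT libraries at day 0. It stood at 4.03 and 3.85 CPM on day 1 of BMP4, 62.9 and 50.1 on day 4, and 205 and 251 on day 5. Taking 3 counts per library as the most that could have been missed, the day 5 level was at least 4406-fold higher. In CPM the rise was steepest over the last days, and no day 5 library came near an earlier one. As a fold, day 1 was already at least 76-fold above day 0 by the same bound.

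CCN1 was at 69.0 and 66.0 CPM at day 0 and 233 and 230 on day 5 of BMP4, a difference of 1.78 ± 0.14 (adjusted p = 8.4e-16). CCN2 went from 48 and 52.8 to 215 and 213 CPM (2.09 ± 0.16, adjusted p = 2.5e-16). CCN1 was also higher on day 1, at 108 and 96 CPM, and both genes lay near their day 0 level on days 2 and 3. AMOTL2 had already moved on day 1, from 36.9 and 42.5 to 117 and 121 CPM (1.58 ± 0.16, adjusted p = 5.5e-12). Of the contractile genes, ACTA2, the smooth muscle actin, went from 1.85 and 1.69 to 17.1 and 18.1 CPM on day 5 (3.32 ± 0.17, adjusted p = 3.4e-24). TAGLN rose on day 1 to 120 and 137 CPM, was at 31.7 and 32.2 on day 2, and reached 160 and 180 on day 5, against 56.5 and 46.7 at day 0.

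In SMADi the members were split in WT cells: at day 5, 5 members had fallen (26.7% of all genes had) and 4 had risen (26.8% had). CCN2 was at 13.9 and 12.5 CPM on day 5 (-1.93 ± 0.18 against day 0, adjusted p = 4.0e-14). TAGLN was at 11.6 in both libraries (-2.15 ± 0.15, adjusted p = 1.0e-18), and CNN1 at 6.55 and 4.80 against 23.4 and 22.0 (-2.00 ± 0.13, adjusted p = 3.8e-19). TPM1 went the other way, from 294 and 300 to 638 and 608 CPM (1.07 ± 0.06, adjusted p = 6.6e-22). ANKRD1, one of the 4, reached only 0.412 and 0.517 CPM. CCN1 and CCN2 did not fall steadily. CCN2 was at 20.8 and 20.0 CPM on day 1, 46.7 and 48.9 on day 2, and 12.3 and 11.8 on day 3, so the day 2 libraries lay near day 0 and both neighbours lay far below.

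In Endo the members fell early and most rose later. On day 2, 7 of 9 members were lower than at day 0, as were 28% of all tested genes. CCN1 dropped from 69.0 and 66.0 CPM to 3.60 and 4.34 (-4.09 ± 0.18, adjusted p = 5.6e-27) and CCN2 to 7.33 and 5.53 (-2.96 ± 0.19, adjusted p = 4.6e-20). By day 5 both were back near day 0, at 63.6 and 64.2 CPM for CCN1 and 60.3 and 57.4 for CCN2, and neither was called against day 0. At day 5, 6 members had risen (31.2% of all genes) and ACTA2 had fallen (32.2% of all genes had fallen).

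TAGLN in Endo was at 38.2 and 39.1 CPM on day 2, 282 and 247 on day 3, 1347 and 1257 on day 4 and 1527 and 1600 on day 5. That is 4.92 ± 0.15 on the log2 scale above day 0 (adjusted p = 1.1e-34). MYL9, the myosin light chain, followed it, from 78 and 70.2 CPM at day 0 to 735 and 791 (3.36 ± 0.09, adjusted p = 9.7e-38). ACTA2 did not: it was at 0.110 and 0.137 CPM on day 3 and 1.04 and 0.722 on day 5. Against day 0, ACTA2 was lower and TAGLN higher on days 3, 4 and 5 of Endo, both were lower on day 2, and both were higher on day 5 of BMP4.

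**Figure D1:**
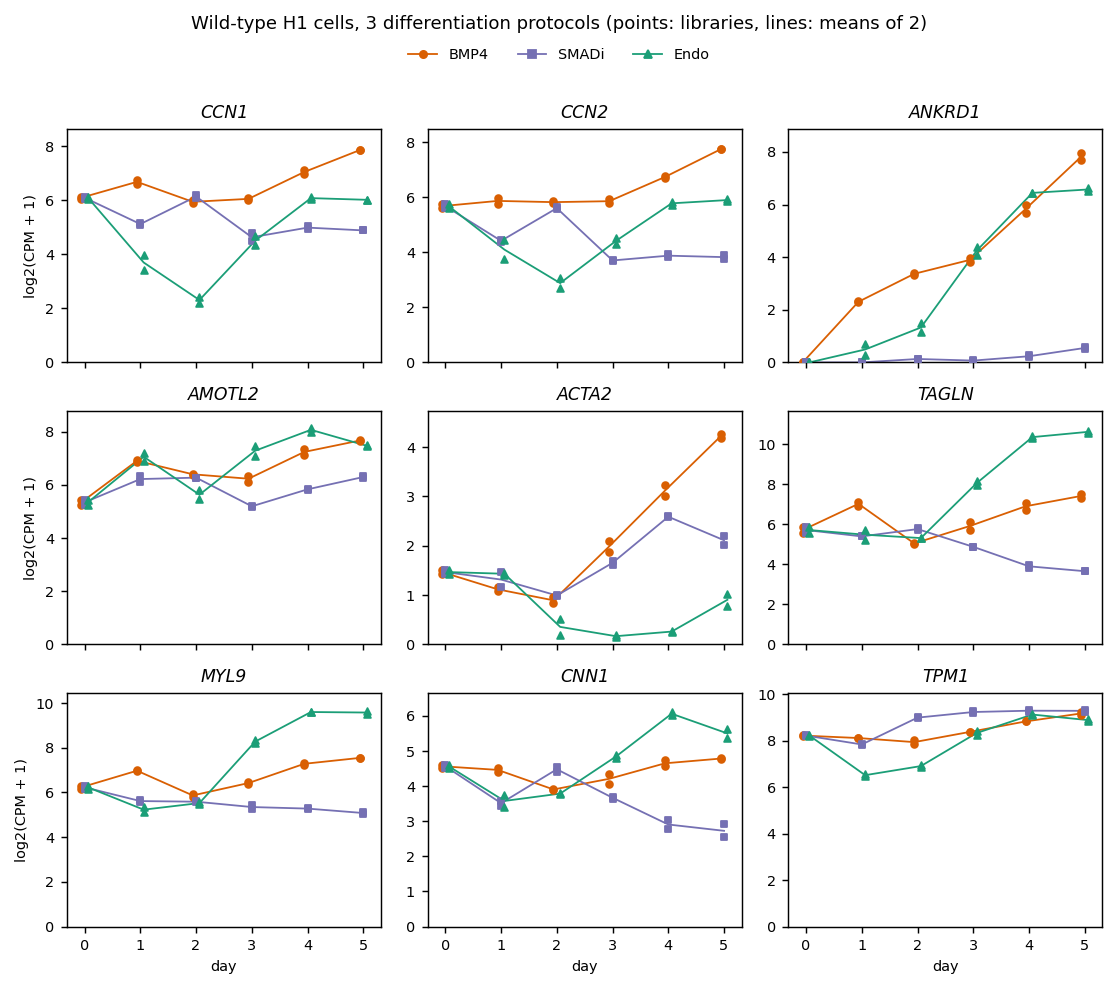
Levels of the 9 genes in WT cells as log2(CPM + 1), y axis, against day of differentiation, x axis; each point is a library, lines join means of 2, and day 0 libraries are shared by the 3 protocols. TAGLN and MYL9 climb from day 3 in Endo, CCN1 and CCN2 dip on day 2 of Endo, and ANKRD1 stays near 0 in SMADi.

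Averaged over days 1 to 5, all 9 members differed between each pair of protocols in WT, where 67.4% (Endo against BMP4), 60.5% (SMADi against BMP4) and 67% (Endo against SMADi) of all tested genes did. CCN1 was lower in Endo than in BMP4 by -2.28 ± 0.07 and TAGLN was higher by 1.51 ± 0.06 (adjusted p = 4.2e-35 and 7.6e-30). Between SMADi and BMP4, 8 members were lower in SMADi and TPM1 was higher (0.44 ± 0.03, adjusted p = 5.6e-21). The protocols also differ in handling: per the labels, SMADi and Endo cells were plated with the ROCK inhibitor Y-27632, and BMP4 cultures were seeded with fewer cells per well. These differences and the lineage signals cannot be told apart.

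Genes around the pathway were taken from lists of their own. Of 16 other YAP target genes, 12 rose and 3 fell by day 5 of BMP4 in WT, where 22.9% and 22.2% of all genes did (median 1.13, against 0.00 for all genes), with FOXF2, a mesenchymal transcription factor, furthest up (7.76 ± 0.52, adjusted p = 5.0e-21). In Endo 8 rose and 5 fell, MYOF, a membrane repair protein, most (6.63 ± 0.19, adjusted p = 7.3e-36), and in SMADi 7 rose and 6 fell. For all genes these shares were 31.2% and 32.2% in Endo and 26.8% and 26.7% in SMADi, so 5 or 6 of 16 lower is near the share of all genes. Of 21 other actin and contractile genes, 17 rose and 2 fell by day 5 of Endo, with TAGLN2, a relative of TAGLN, highest (3.24 ± 0.08, adjusted p = 1.8e-38) and MYLK, the myosin light chain kinase, lowest (-3.43 ± 0.17, adjusted p = 2.9e-25). In SMADi 4 of the 21 rose and 15 fell, ACTG2, an enteric smooth muscle actin, furthest (-4.62 ± 0.35, adjusted p = 5.9e-17). Of 5 smooth muscle markers, 1 rose and 3 fell by day 5 of Endo, with MYH11, the smooth muscle myosin, at 0.0399 to 0.931 CPM and DES at 0.399 to 0.419.

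The KO and ΔATG lines were then compared with WT. At day 0, 2 members were lower in KO, where 3.03% of all tested genes were: CCN1 (-0.50 ± 0.14, adjusted p = 0.029) and TAGLN (-0.50 ± 0.13, adjusted p = 0.017). CCN1 was at 57.7 and 37.8 CPM in KO, and TAGLN at 34.6 and 38.2, with no overlap with WT in either gene. In ΔATG, TAGLN (-0.72 ± 0.14, adjusted p = 2.9e-04) and MYL9 (-0.34 ± 0.08, adjusted p = 0.0072) were lower (3.2% of all genes were) and CCN2 was higher (0.62 ± 0.16, adjusted p = 0.011; 2.3% were). CCN2 stood at 95.2 and 59.3 CPM in ΔATG, so its libraries differ by more than the lower of them differs from WT.
Between the edited lines at day 0, ΔATG was higher in CCN2 and AMOTL2 and lower in ACTA2, 3 members called against 4.07% of all genes. These day 0 calls are fragile: without WT library a, KO and ΔATG have 0 called members against WT, without KO library b 0 are called for KO against either line, and without ΔATG library a 1 is called between the edited lines. At day 0, libraries of the same letter deviated together, and with the letter as a block 4 members were called in KO, with AMOTL2 (adjusted p = 0.026) and MYL9 (adjusted p = 0.045) added, while CCN1 joined the calls between the edited lines (adjusted p = 0.029).

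SMADi was where the edited lines stood furthest above WT. Averaged over days 1 to 5, 7 of 9 members were higher in KO (21% of all tested genes were) and 8 of 9 in ΔATG (20.9% were), and none was lower in either line. The median difference of all 9 members was 1.17 in KO and 1.31 in ΔATG, against -0.01 for all genes in both. These medians include ANKRD1, whose average fold rests on groups at 0 counts. For the 5 contractile genes, without ANKRD1, the median was 1.25 in KO and 1.31 in ΔATG. CCN1 and AMOTL2 lay below these medians in both lines. The 2 lines share their WT libraries, so their values are given side by side and not as independent evidence.

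TAGLN on day 2 of SMADi was at 51.7 and 54.6 CPM in WT, 210 and 220 in KO, and 271 and 258 in ΔATG. On day 5 it was at 11.6 and 11.6 in WT, 64.9 and 66.0 in KO, and 50.4 and 53.7 in ΔATG. The lines did not overlap with WT on any of the 5 days, and over these days TAGLN was higher by 1.57 ± 0.06 in KO (adjusted p = 6.4e-29) and 1.75 ± 0.06 in ΔATG (adjusted p = 5.6e-31). ACTA2 on day 3 was at 2.23 and 2.07 CPM in WT, 15.4 and 16.2 in KO and 12.7 and 10.7 in ΔATG. Its average difference was 1.98 ± 0.08 in KO (adjusted p = 2.6e-28) and 1.65 ± 0.08 in ΔATG (adjusted p = 4.2e-24). MYL9, TAGLN, ACTA2 and TPM1 were called higher on each of the 5 days in both lines. From day 1 to day 5, 3.61%, 6.89%, 14.1%, 16.4% and 15.5% of all genes were higher in KO, and 4.47%, 7.84%, 13.3%, 15.7% and 13.8% in ΔATG.

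Of CCN1, CCN2 and AMOTL2, CCN2 differed most between the edited lines and WT in SMADi. On day 5 it was at 13.9 and 12.5 CPM in WT, 73.2 and 78.5 in KO and 52.3 and 57.7 in ΔATG (2.52 ± 0.18 and 2.06 ± 0.18, adjusted p = 4.2e-18 and 1.2e-14). CCN1, which is read as its partner, did not do so: on day 5 it was at 28.6 in both WT libraries, 28.8 and 33.0 in KO and 27.0 and 30.3 in ΔATG. Over the 5 days CCN1 differed from WT by 0.10 ± 0.07 in KO (adjusted p = 0.21) and by 0.26 ± 0.07 in ΔATG (adjusted p = 7.4e-04). AMOTL2 was higher by 0.63 ± 0.07 and 0.57 ± 0.07 (adjusted p = 2.7e-11 and 4.9e-10). CNN1 was called higher on 1 of 5 days in each line, day 2, when it was at 20.3 and 22.4 CPM in WT, 35.8 and 34.2 in KO and 41.4 and 39.1 in ΔATG.

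ANKRD1 had 0 counts on day 1 of SMADi in all 3 lines, so no average fold is given. On day 5 it was at 0.412 and 0.517 CPM in WT, 0.942 and 1.09 in KO and 1.52 and 1.80 in ΔATG, from 21 and 28 counts in WT, 54 and 66 in KO and 62 and 109 in ΔATG. The lines did not overlap that day, and these low levels are given as a description. Between ΔATG and KO in SMADi, 1 member was called, ACTA2 (-0.33 ± 0.07, adjusted p = 0.0023), against 1.07% of all genes. With only the libraries of that comparison in the fit, 4 members were called, CCN1, CCN2 and TAGLN being the others.

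**Figure D2:**
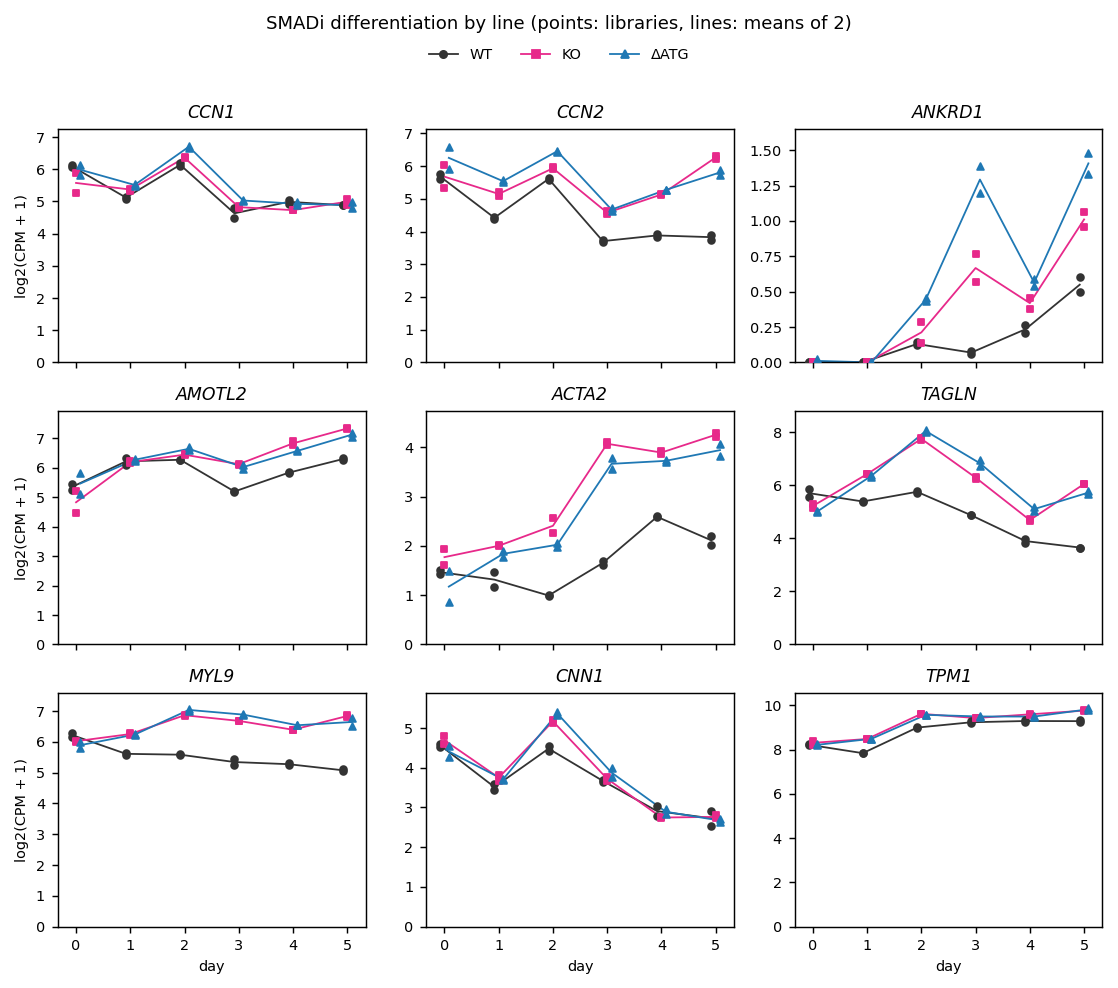
Levels in SMADi as log2(CPM + 1), y axis, by day, x axis, in WT, KO and ΔATG; points are libraries and lines join means of 2. TAGLN, MYL9 and ACTA2 of both edited lines lie above WT on days 1 to 5, and the 3 lines lie close together in CCN1 and, outside day 2, in CNN1.

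Other genes of the pathway in SMADi did not all follow. Of 16 other YAP target genes, 6 rose and 4 fell in KO (median -0.03) and 7 rose and 4 fell in ΔATG (median 0.29). Of all genes, 21% were higher and 24.6% lower in KO, and 20.9% and 24.3% in ΔATG, so the 4 of 16 that fell are at the share of all genes. NUAK2, a kinase that acts on myosin phosphatase, was highest (1.08 ± 0.05 in KO, adjusted p = 1.3e-26), and TGFB2, a TGF-β ligand, lowest (-1.56 ± 0.21, adjusted p = 7.4e-09). Of 21 other actin and contractile genes, 11 rose and 6 fell in KO (median 0.11) and 12 rose and 6 fell in ΔATG (median 0.14). ACTG2 was highest (1.11 ± 0.15 in KO, adjusted p = 5.8e-09) and ACTG1, a cytoplasmic actin, lowest (-0.50 ± 0.05, adjusted p = 4.6e-13). Of SRF and its 3 cofactors, 3 rose in each line, with MYOCD, a muscle cofactor of SRF, most (1.57 ± 0.38 in KO, adjusted p = 4.7e-04).
Stem cell and neural genes moved with these results: on day 5 of SMADi POU5F1 was at 135 to 137 CPM in WT, 19.1 to 20.8 in KO and 19.8 to 20.8 in ΔATG, and PAX6 at 139 to 161, 365 to 389 and 305 to 335. Of the 5 smooth muscle markers, 2 rose and 1 fell in KO, and 1 rose and 3 fell in ΔATG, so that 1 of 5 is near the shares of all genes given above. Their summed level on day 5 was 29.3 to 35.8 CPM in WT, 28.3 to 30.2 in KO and 26.7 to 28.3 in ΔATG, with DES under 1 CPM in all of these libraries. The part of these genes in the members' differences was not tested.

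In Endo the edited lines parted. ΔATG was lower than WT in 8 of 9 members over days 1 to 5, where 17.2% of all tested genes were lower, and in no member higher. KO was called lower in 1 member, ANKRD1, which is near the share of all genes (8.04%). It was called higher in 2, TAGLN and MYL9 (6.76%). Compared directly, ΔATG was lower than KO in 8 members, against 9.65% of all genes, and ACTA2 was the member not called.

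On single days of Endo, ΔATG was lower in 2 members on day 1 (ANKRD1 and ACTA2), 1 on day 2 (AMOTL2), 6 on day 3, 8 on day 4 and 9 on day 5. Over the same days 8.08%, 7.59%, 9.05%, 7.94% and 9.43% of all genes were lower. TAGLN on day 4 was at 1347 and 1257 CPM in WT, 1252 and 1297 in KO, and 394 and 471 in ΔATG, and on day 5 at 594 and 529 in ΔATG. ΔATG was below WT by -1.59 ± 0.13 on day 4 (adjusted p = 1.5e-14). On day 2 it had been above WT, at 55.6 in both libraries against 38.2 and 39.1 (0.53 ± 0.13, adjusted p = 0.0039). CNN1 on day 4 was at 64.2 and 67.5 CPM in WT, 53.7 and 63.9 in KO and 23.9 and 29.1 in ΔATG (-1.31 ± 0.11 for ΔATG, adjusted p = 1.3e-13). MYL9 and TPM1 were also called lower in ΔATG on days 3, 4 and 5 and on no other day.

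Of the YAP targets in Endo, ANKRD1 on day 4 was at 85.8 and 86.5 CPM in WT, 57.8 and 65.1 in KO and 24.8 and 26.2 in ΔATG. ΔATG was lower by -1.76 ± 0.13 that day (adjusted p = 2.4e-15), and WT, KO and ΔATG did not overlap. The 5-day average of ANKRD1 in ΔATG (-2.02 ± 0.20) includes day 1, when the ΔATG libraries were at 0 and 0.0176 CPM, and so leans on very few counts. In KO the average was -0.48 ± 0.12 (adjusted p = 0.0034), and without WT day 1 library a it was no longer called (adjusted p = 0.28). CCN1 was at 63.6 and 64.2 CPM in WT on day 5, 56.6 and 52.0 in KO and 35.1 and 39.5 in ΔATG (-0.78 ± 0.14 for ΔATG, adjusted p = 4.3e-05). AMOTL2 was lower in ΔATG by -0.70 ± 0.07 over the 5 days (adjusted p = 2.1e-12). CCN2 was lower by -0.23 ± 0.08 (adjusted p = 0.020), a call lost in limma voom (adjusted p = 0.060) and on leaving out any of 5 libraries, WT library a of day 1, 2 or 3 or ΔATG library a of day 2 or 4.

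**Figure D3:**
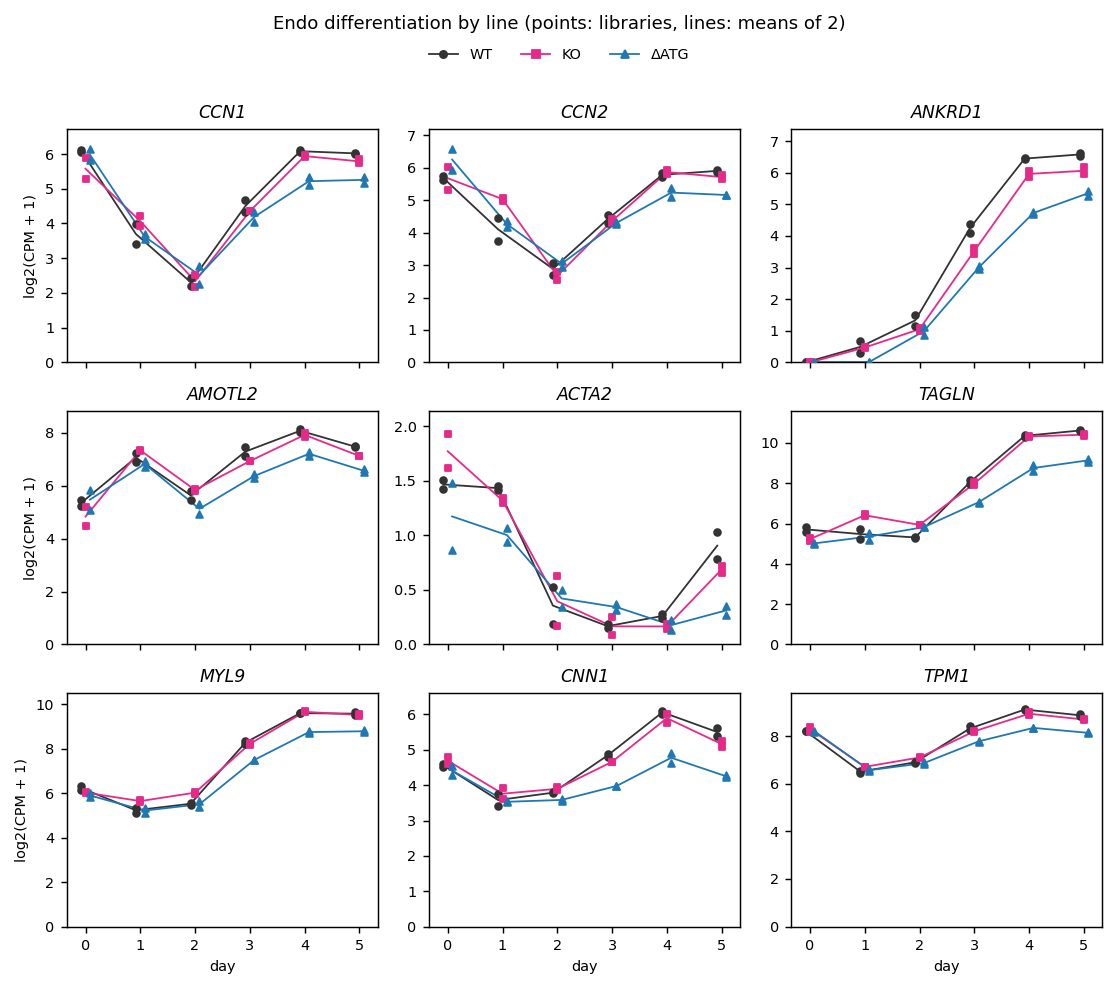
Levels in Endo as log2(CPM + 1), y axis, by day, x axis, in WT, KO and ΔATG; points are libraries and lines join means of 2. From day 3 the ΔATG libraries lie below WT and KO in TAGLN, MYL9, CNN1, TPM1, AMOTL2 and ANKRD1.

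The wider contractile list moved the same way in ΔATG Endo cells: of 21 other actin and contractile genes 17 fell and 1 rose (median -0.31, against 0.02 for all genes). VCL, which anchors actin at adhesions, fell furthest (-0.48 ± 0.06, adjusted p = 3.0e-10), and MYLK rose (0.58 ± 0.07, adjusted p = 1.2e-09). In KO 2 of the 21 rose and 3 fell, where 6.76% and 8.04% of all genes did. Of SRF and its cofactors, 3 of 4 fell in ΔATG, MYOCD most (-0.78 ± 0.16, adjusted p = 4.6e-05). Other YAP target genes were split, 6 higher and 5 lower of 16 (16.6% and 17.2% of all genes), with CCDC80, a matrix protein, highest (1.49 ± 0.19, adjusted p = 6.2e-09) and FOXF2 lowest (-1.56 ± 0.25, adjusted p = 4.2e-07).
Of the YAP, TAZ and TEAD factors, 4 of 7 fell, TEAD1 most (-0.35 ± 0.10, adjusted p = 0.0036), and of 14 Hippo kinases and upstream regulators 4 fell, where 17.2% of all genes did. Lineage genes moved beside these: on day 5 of Endo POU5F1 was at 8.43 to 8.70 CPM in WT, 18.1 to 19.1 in KO and 41.8 to 41.9 in ΔATG, and SOX17 at 422 to 423, 403 to 416 and 354 to 359. Their part in the result was not tested.

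Under BMP4, in the fit without a block, ANKRD1, AMOTL2 and ACTA2 were lower than WT in both edited lines. TAGLN and MYL9 were lower in ΔATG, and CCN2 and TPM1 were higher in KO. With the letter as a block, TAGLN and MYL9 were called in KO as well, ACTA2 was not called in KO, and TPM1 was added in ΔATG. Whether TAGLN, MYL9 and ACTA2 set KO apart from ΔATG in their calls against WT thus rests on the fit. Without the block, 3 members were lower in KO over days 1 to 5 (15.4% of all tested genes) and 2 were higher (13.3%). In ΔATG, 5 were lower (8.78%) and none was higher (8.19%). ANKRD1 on day 5 was at 205 and 251 CPM in WT, 44.1 and 59.5 in KO and 82.3 and 75.6 in ΔATG, and no 2 lines overlapped. Over the 5 days ANKRD1 differed from WT by -0.98 ± 0.07 in KO (adjusted p = 7.1e-17) and -0.42 ± 0.07 in ΔATG (adjusted p = 3.9e-06). AMOTL2 on day 5 was at 207 and 199 CPM in WT, 75.5 and 78.4 in KO and 128 and 108 in ΔATG, and its 5-day difference was -0.70 ± 0.07 in KO (adjusted p = 2.0e-12).

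CCN2 in KO under BMP4 changed sides within the course: on day 2 it was at 84.2 and 91.8 CPM against 57.2 and 54.3 in WT, and on day 5 at 123 and 142 against 215 and 213. Its average in KO, 0.22 ± 0.07 (adjusted p = 0.014), hides this, and without KO day 4 library a it was no longer called (adjusted p = 0.092) and 3 members were called in all. TAGLN was lower in ΔATG by -0.52 ± 0.06 (adjusted p = 5.7e-10). In KO it was not called without a block (-0.13 ± 0.06, adjusted p = 0.081) and was with the letter as a block (adjusted p = 0.023), as was MYL9 (adjusted p = 0.029), while ACTA2 (-0.25 ± 0.10, adjusted p = 0.047) lost its call (adjusted p = 0.063). The mesoderm gene HAND1 moved with these results, at 208 to 240 CPM in WT on day 5, 54.9 to 80.2 in KO and 122 to 148 in ΔATG. Of the 8 fibroblast markers 4 fell in KO and 3 in ΔATG, where 15.4% and 8.78% of all genes fell. Their summed level on day 5 was 1707 to 1769 CPM in WT, 886 to 999 in KO and 1086 to 1291 in ΔATG. The part of these genes in the members' differences was not tested.
Compared directly under BMP4, ΔATG was higher than KO in ANKRD1 (0.57 ± 0.07, adjusted p = 1.5e-08) and AMOTL2 (0.31 ± 0.07, adjusted p = 9.1e-04) and lower in ACTA2, TAGLN and MYL9, 5 members called against 13.6% of all genes. Of the 16 other YAP target genes, 2 rose and 10 fell in KO, where 13.3% and 15.4% of all genes did. In ΔATG 1 rose and 6 fell, where 8.19% and 8.78% of all genes did. The numbers that rose are near the share of all genes. FOXF2 was lowest in both (-2.05 ± 0.19 in KO, adjusted p = 6.8e-15, and -0.83 ± 0.15 in ΔATG, adjusted p = 1.4e-05).

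The difference from WT was tested for dependence on protocol. It depended on the protocol for 8 of 9 members in KO, all but CCN1, where 47.4% of all tested genes passed, and for all 9 in ΔATG, where 48.1% passed. For TAGLN the 5-day difference in KO was -0.13 in BMP4, 1.57 in SMADi and 0.25 in Endo (adjusted p = 4.6e-24 for the dependence), and in ΔATG -0.52, 1.75 and -0.74 (adjusted p = 2.9e-32). TPM1, the tropomyosin, differed in ΔATG by 0.07, 0.45 and -0.41 in the same order (adjusted p = 2.5e-25). Within a protocol, the KO difference depended on the day for 7 members in BMP4, 7 in SMADi and 4 in Endo, where 10.4%, 32.7% and 2.95% of all genes passed. In ΔATG it did so for 4, 9 and 9 members, where 2.27%, 29.5% and 16.2% passed.

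**Figure D4:**
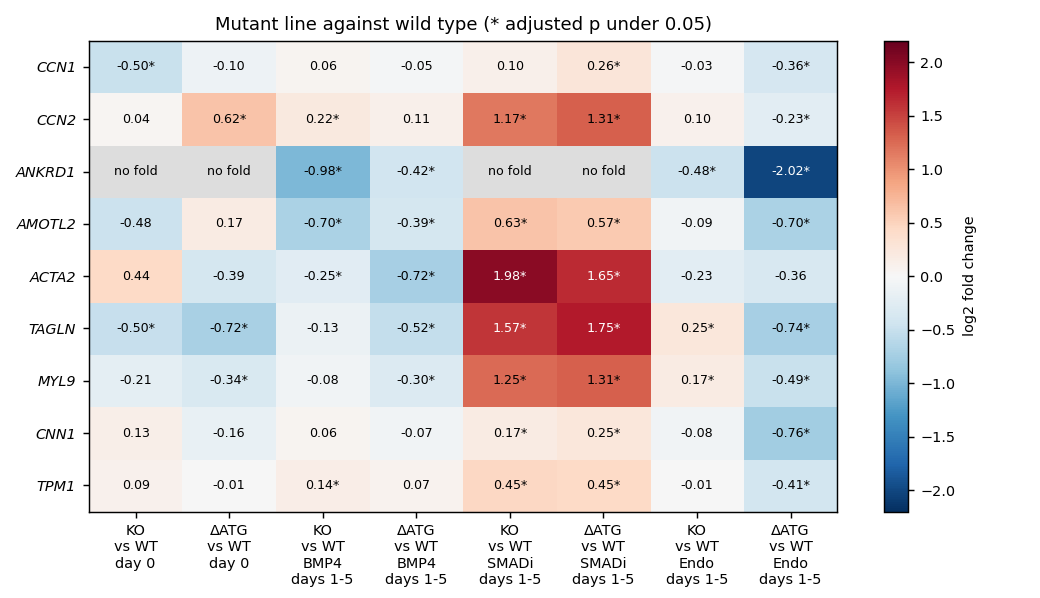
Log2 fold change of KO and ΔATG against WT (colour and printed value), genes in rows and comparisons in columns, with an asterisk at an adjusted p under 0.05 in edgeR; no fold is given for ANKRD1 where groups are at 0 counts. SMADi columns are positive for the contractile genes and CCN2, and the ΔATG Endo column is negative throughout.

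Across the 48 differentiation groups, the 9 genes did not run as a single set. The mean log2 CPM of CCN1 and CCN2 correlated at 0.92 (Pearson), that of TAGLN and MYL9 at 0.94, and that of ACTA2 and TAGLN at -0.38. With the 12 overexpression groups added, these were 0.91, 0.95 and -0.04, so the value for ACTA2 and TAGLN rests on which groups are taken. These are descriptions over groups that share protocols and days. Among genes outside the 9, PLD3 (0.92), CREB3 (0.90), DAPK3 (0.88), RPN1 (0.88) and NECTIN2 (0.87) had the patterns nearest to TAGLN.

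In the overexpression libraries the RNA level of LNCPRESS1 goes against some labels. At the early stage the libraries labelled lncPRESS1 had 32.3 and 53.8 CPM against the vector's 29 to 30.2 (not called), and those labelled lncSIRP had 133 to 185. At the middle stage lncPRESS1 libraries had 55.1 to 58.6 against 36.3 to 47.8 for the vector (not called, adjusted p = 0.084). The late lncPRESS1 libraries had 151 to 153 and the lncPRESS1ΔATG libraries 87.8 to 156 over the stages. Directions for lncPRESS1 and lncSIRP are therefore those of the libraries labelled so.

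At the middle stage all 9 members were higher in the libraries labelled lncPRESS1 and in those labelled lncSIRP than in the vector, where 29.3% and 30.6% of all tested genes were higher. TAGLN was at 15.4 and 16.8 CPM in the vector, 631 and 588 in lncPRESS1 and 1266 and 1309 in lncSIRP (5.24 ± 0.23 and 6.32 ± 0.24, adjusted p = 1.7e-12 and 2.1e-13). ACTA2 was at 1.5 and 2.31 CPM in the vector, 81.4 and 68.9 in lncPRESS1 and 227 and 225 in lncSIRP. ANKRD1 was at 0.0916 and 0.0629 CPM in the vector, 91.2 and 74.1 in lncPRESS1 and 205 and 203 in lncSIRP. In each of these genes the lncSIRP libraries were the highest, lncPRESS1 came next, and no group overlapped with another.

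The same 4 libraries stand apart in other ways. POU5F1 was at 258 to 304 CPM in them and at 2194 to 2329 in the vector, HAND1 at 333 to 474 against 0 to 0.0157, and COL3A1, a fibrillar collagen, at 2690 to 3524 against 0 to 0.0366. The summed level of the 8 fibroblast markers was 5706 to 5826 CPM in lncPRESS1 and 7305 to 7603 in lncSIRP, against 652 to 663 in the vector. For 7 cardiac muscle markers it was 953 to 1063 and 2210 to 2225 against 5.51 to 6.10, and for 5 endothelial markers 1041 to 1053 and 728 to 786 against 239 to 261. For 5 smooth muscle markers it was 85.0 to 88.7 and 100.3 to 106 against 30.5 to 30.8, with MYH11 at 0.353 to 0.806 CPM and DES at 3.83 to 5.84. The part of these genes in the members' rise was not tested.
The construct effect depended on the stage for 9 members in lncPRESS1 and 9 in lncSIRP, where 48.2% and 48.1% of all genes passed.

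**Figure D5:**
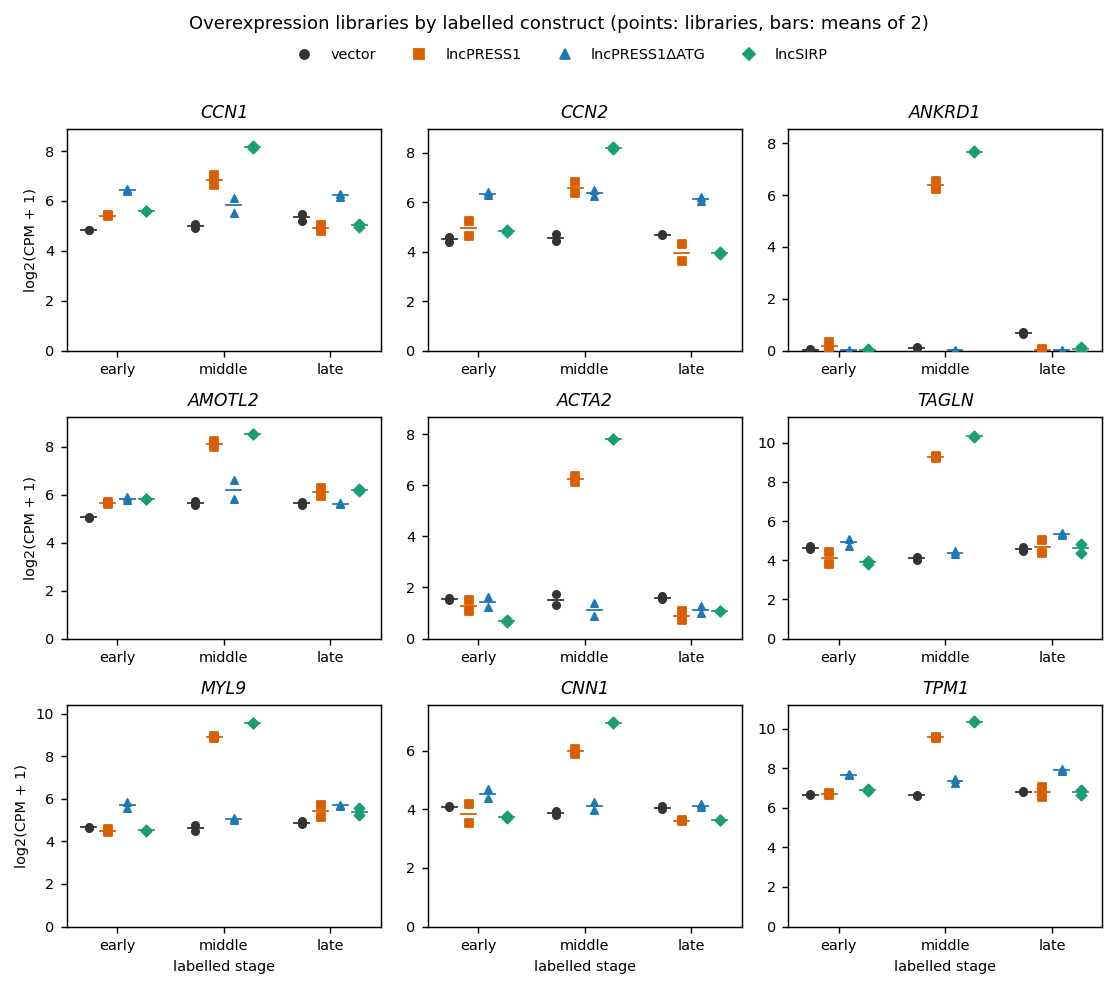
Levels as log2(CPM + 1), y axis, by labelled stage, x axis, for vector, lncPRESS1, lncPRESS1ΔATG and lncSIRP libraries; points are libraries and bars are means of 2. The middle lncPRESS1 and lncSIRP libraries stand above all others in TAGLN, ACTA2, MYL9, CNN1, TPM1, AMOTL2, ANKRD1 and CCN1, and overlap with lncPRESS1ΔATG libraries in CCN2.

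At the early stage no member was called in lncPRESS1, where 0.412% of all genes were by edgeR and 2909 genes had an unadjusted p under 0.05. DESeq2 called 1 member, CCN1 (0.57, adjusted p = 0.029). In early lncSIRP libraries, CCN1 and AMOTL2 were higher (5.12% of all genes) and ACTA2 and TAGLN lower (5.65%), and no member was called without any 1 of its 4 libraries. ACTA2 was at 0.550 and 0.674 CPM there, against 1.86 and 2.03 in the vector.
At the late stage, CCN2 was lower in lncPRESS1 (11.3 and 18.8 CPM against 24.9 in both vector libraries, -0.73 ± 0.22, adjusted p = 0.024) and in lncSIRP (14.7 and 14.1, -0.79 ± 0.22, adjusted p = 0.018). In late lncPRESS1 libraries 4 members, ANKRD1 among them, were lower (11.6% of all genes) and MYL9 was higher (11%), and in late lncSIRP libraries 2, CCN2 and ANKRD1, were lower and 2 higher (10.7% each way). These calls drop to 1 for lncPRESS1 without vector library a, to 2 without vector library b or lncPRESS1 library b, and to 1 for lncSIRP without any 1 of its 4 libraries. ANKRD1 was at 0.541 and 0.638 CPM (30 and 33 counts) in the late vector, and at most 0.0917 in the late lncPRESS1, lncPRESS1ΔATG and lncSIRP libraries. These counts are too few to rest a difference on. With ANKRD1 set aside, CCN2 was the only member lower in late lncSIRP libraries, which is near the share of all genes.

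In lncPRESS1ΔATG libraries CCN1, CCN2 and TPM1 were higher than the vector at all 3 stages. CCN2 was at 77.0 and 84.3 CPM early, 74.7 and 90.1 at the middle and 72.2 and 64.4 late, against 20.0 and 23.3, 25.1 and 20.5, and 24.9 and 24.9 in the vector, with no overlap. The differences were 1.90 ± 0.20, 1.86 ± 0.20 and 1.46 ± 0.20 (adjusted p = 1.1e-05, 1.9e-05 and 9.1e-05). TPM1 was at 204 and 198, 154 and 175, and 227 and 248 CPM, against 95.8 to 113 over the vector libraries. In all, 6 members were higher early (11.3% of all genes), 4 at the middle (3.15%), and 5 late (10%). The 1 member called lower late (11.1% of all genes) was ANKRD1, on 0 and 1 counts against 30 and 33 in the vector, too few to rest a difference on.
At the middle stage AMOTL2 (0.63 ± 0.18, adjusted p = 0.040) was at 54.7 and 97.3 CPM. Its call was lost without its library b (adjusted p = 0.56) or without vector library a (adjusted p = 0.098) or b (adjusted p = 0.27), in limma voom (adjusted p = 0.072), with only the libraries compared (adjusted p = 0.33) and with the replicate block (adjusted p = 0.066). TAGLN was called only late (0.80 ± 0.21, adjusted p = 0.010), and ACTA2 at no stage. Dependence on the stage was found for CCN1 alone (adjusted p = 0.038, 16.4% of all genes passed), a call lost without any 1 of 7 of the 12 libraries. Between the vector's own stages no member was called by edgeR. There 5 genes (0.0215%) were called at the middle and 30 (0.129%) late, with 1285 and 3270 genes at an unadjusted p under 0.05, and DESeq2 called 3 members late against early, CCN1, ANKRD1 and AMOTL2.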

How the data were processed

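The deposited table holds estimated counts per gene (expected counts), which the authors supply as length scaled according to its name. The submitters' processing notes name the build GRCh38, and the labels name a stranded library kit. Quantifier and annotation: not given in the sources used here. Counts were rounded and each arm was fitted separately in R 4.3.3 with edgeR 4.0.16, with TMM scaling, filterByExpr and 1 mean per group, which left 25821 and 23300 genes and 48 and 12 residual degrees of freedom. Tests were two-sided quasi-likelihood F tests. The SE is the log2 fold change divided by the square root of F, and averages over days or stages are contrasts of group means. Alternatives used DESeq2 1.42.0, limma 3.58.1, no filter, a replicate block, only the libraries compared, and leaving out each library. Figures used matplotlib 3.10.9.

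The members and lists were chosen with earlier results of these data known. All members are reported, and from each other list the called genes with the largest rise and deepest fall; levels of marker genes were chosen after their values were seen. Replicate libraries differed beyond sampling noise in all 60 groups, and unequally. In chi-square per gene the difference was 52.2 (WT), 90.7 (KO) and 82.2 (ΔATG) at day 0. It was 24.8 to 75.4 in BMP4, 6.21 to 25.6 in SMADi and 7.54 to 19.7 in Endo. At the early stage it was 72.7 in lncPRESS1, 71.0 in lncPRESS1ΔATG and 8.90 in the vector. At the middle stage it was 68.8 in lncPRESS1ΔATG and 19.4 in the vector. The test pools 1 spread per gene over an arm, so p-values can be too small where replicates differ more. That holds for day 0, BMP4, early lncPRESS1 and early and middle lncPRESS1ΔATG. In simulated counts for 25821 genes, 100 of them changed at each size, KO against WT recovered 46% of log2 changes of 0.5 and 85% of 1 at day 0, 87% and 98% over SMADi days and 91% and 97% over BMP4 days. Late lncPRESS1 against vector, on 23300 genes, recovered 22% and 78%. Of the genes left unchanged, 34 were called at day 0, 10 over SMADi days, 11 over BMP4 days and 8 for late lncPRESS1. Day 0 thus had both missed changes and the most false calls of these simulated comparisons. The simulation gave each gene the same spread in all groups and no deviation shared by letter. The real day 0 libraries differ from it in both, so these figures are not error rates of the real day 0 calls.

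Pairing by letter was checked as the correlation, over all tested genes, of library b minus a between groups of the same day or stage. It was over 0.1 in 3 of 3 pairs at day 0 (0.17 to 0.35), 11 of 15 in BMP4, 0 of 15 in SMADi and Endo and 0 of 18 in overexpression. After these were seen, the check was repeated on genes averaging 1 or more in log2 CPM, which gave 3 of 3, 15 of 15, 0 of 15, 1 of 15 and 4 of 18. The first version was kept for deciding where letters pair, which by it is day 0 and most pairs in BMP4. Counts of called members there are still from the fit without a block. Calls that the block changed are given beside them or in the last section. The labels name no shared batch. The label of early lncPRESS1ΔATG library a holds the word Redo, which is not explained in the sources used here. The genes nearest in pattern to CCN2, and 1 of the pathway lists, are not reported here.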

Additional observations from a re-analysis of the deposited data

Results flagged for a closer look

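The difference between an edited line or a construct and its control depended on the protocol, the day or the stage for many members, by joint edgeR F tests of the differences themselves. By protocol it was 8 members in KO and 9 in ΔATG. By day in KO it was 7 in BMP4, 7 in SMADi and 4 in Endo (10.4%, 32.7% and 2.95% of all genes passed). By day in ΔATG it was 4 in BMP4, 9 in SMADi and 9 in Endo (2.27%, 29.5% and 16.2%). By stage it was 9 in lncPRESS1, 9 in lncSIRP and 1 in lncPRESS1ΔATG. The values behind these counts, such as TAGLN in ΔATG Endo cells at 0.53 on day 2 and -1.59 on day 4, stand in the results above. Groups of 2 libraries are too small to look for single libraries far from the rest.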

How the results depend on the processing

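No called member changed direction under any alternative. The counts of called members moved over 1.5 times in these cases. At day 0 KO against WT had 2, with 1 under no filter, 4 with the replicate block and 0 in a fit of only the libraries compared, ΔATG against WT had 3 and 0, and ΔATG against KO had 3 and 0. The last fit leaves 2 residual degrees of freedom per comparison, so fewer libraries set the spread. ΔATG against KO in SMADi had 1, with 2 under the replicate block and 4 with only the libraries compared. That last setting also gave 4 in place of 7 for dependence of the KO effect on day in BMP4, 2 in place of 4 for lncPRESS1ΔATG at the middle stage, 7 in place of 4 for early lncSIRP, and 3 in place of 0 for the late vector against early. DESeq2 gave 1 in place of 0 for early lncPRESS1 and 3 for the late vector, and no filter 1 for the late vector. For dependence of lncPRESS1ΔATG on stage, 1 became 0 under the replicate block and with only the libraries compared. The cause was not tested. Leaving out 1 library gave 0 to 2 for KO and 0 to 3 for ΔATG at day 0, 0 to 4 between the edited lines at day 0, 3 to 7 for KO in BMP4, and 1 to 4 for dependence of ΔATG on day in BMP4. It gave 0 to 1 for early and 1 to 4 for late lncPRESS1, 0 for early and 1 for late lncSIRP, and 0 to 2 for lncPRESS1ΔATG by stage. Over all genes, day 0 calls numbered 1263 (KO), 1420 (ΔATG) and 1050 (between them), and became 3188, 2804 and 2661 with the replicate block, 790, 872 and 657 with no filter, and 3, 2 and 3 with only the libraries compared. The replicate block also took ΔATG against KO in BMP4 from 3508 to 6175, dependence on day in BMP4 from 2684 to 5406 (KO) and 587 to 1465 (ΔATG), and in Endo from 762 to 1763 and 4175 to 7088. Only the libraries compared gave 1730, 415, 21 and, for ΔATG in Endo, 6455 there, 2717 in place of 4381 for ΔATG in BMP4, and 619 in place of 275 between the edited lines in SMADi (DESeq2: 453). For overexpression it gave 0 in place of 96 (early lncPRESS1; DESeq2: 446, replicate block: 38), 7549 in place of 2511 (early lncSIRP), 1377, 457 and 7614 in place of 6129, 1714 and 4926 (lncPRESS1ΔATG early, middle and late), 1761 in place of 3811 (its dependence on stage) and 1540 in place of 30 (vector late against early; DESeq2: 619, DESeq2 size factors: 18, replicate block: 3). For the vector at the middle stage 5 became 32 in DESeq2, 9 with no filter, and 3 in limma voom and with the replicate block. The replicate block moved 12 member results past the threshold and 5 below it over the main comparisons. Besides those given with the results, in BMP4 it added CNN1 (WT day 5, adjusted p = 0.024), TPM1 (ΔATG, adjusted p = 0.0090 against WT and 0.015 against KO), and TAGLN (adjusted p = 0.019) and TPM1 (adjusted p = 0.0051) for dependence of ΔATG on day. Averaging only the middle and late stages, added after the data were seen, changed 3 member results, all for lncPRESS1ΔATG. DESeq2 (adjusted p = 0.016 and 6.3e-05) and limma voom (adjusted p = 0.0065 and 1.0e-05) called ANKRD1 over SMADi days in KO and ΔATG, where edgeR did not and where it has 0 counts on day 1. Over 60 groups, 4 of the 5 genes nearest to TAGLN stayed. With 2 libraries a group, changes of 0.5 on the log2 scale were often missed in the simulated counts. Recovery there was 46% at day 0 (KO) and 22% in late lncPRESS1, with the same spread set for all groups.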
